A study of Mus musculus with 2 samples.

Results

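The genes described are the matrix metalloproteinases (Mmp), the secreted proteases of the Adamts family and the tissue inhibitors of metalloproteinases (Timp). Members were all records whose gene symbol was Mmp with a number and, for some, the letter a or b, Adamts with a number, or Timp1 to Timp4. The rule used names and no measured value. It found 46 genes among 23746 records, of which 23 were Mmp, 19 were Adamts and 4 were Timp genes. Expression came from 2 RNA sequencing libraries of mouse medulloblastoma, a tumour of the cerebellum, with 1 library per genotype. Both mice carried CAG-CreER, a tamoxifen-inducible Cre recombinase under a widely active promoter that does not limit deletion to tumour cells, and Rosa26-SmoM2, which encodes an activated form of the Hedgehog signal transducer Smoothened. Both were given tamoxifen 10 times, and both tumours arose spontaneously. The library called wild type is from a Brg1+/+ mouse, and the library called knockout is from a Brg1F/F mouse, in which Cre can delete Brg1, the chromatin remodelling ATPase encoded by Smarca4. The age and sex of the mice were not given in the sources used here.

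Metalloproteinases of these families hold a zinc ion in their active site and cut proteins outside the cell. Mmp enzymes are made as inactive precursors and cleave collagens, laminins, growth factors and adhesion proteins. Adamts enzymes cut matrix proteoglycans such as versican and brevican, which fill much of the extracellular space of the brain, or trim the ends of procollagens. Timp proteins bind the active site and block it, and the balance between proteases and inhibitors sets how fast matrix is turned over. In the brain these genes are known for roles in cell migration, axon growth and synapse remodelling.

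Values are FPKM, in which fragments are divided by transcript length and by library size, so levels can be compared between genes. The log2 ratio given below is log2((knockout FPKM + 1)/(wild-type FPKM + 1)). A gene was called higher or lower in the knockout library when this ratio was at least 1 or at most -1. With 1 library per genotype the values have no replicate error and no test was possible, so genotype and individual tumour cannot be told apart. Xist, the RNA of the inactive X chromosome, had 268 FPKM in wild type against 0.369 FPKM in the knockout. A difference in sex between the mice therefore cannot be told apart from genotype in any comparison below. Tissue was dissected, so fewer cells of a type and less RNA per cell cannot be told apart either. FPKM summed to 388032 in the wild-type and 343028 in the knockout library, and the depth of each is unknown. Smarca4 had 14.0 FPKM in wild type against 3.76 FPKM in the knockout, which is 26.8% of the wild-type value. Its record spans the whole gene, so this value does not measure the deleted part. The deposited files also give a lower and an upper bound for each FPKM. The FPKM itself lay outside its own bounds for 28.2% of wild-type and 29.9% of knockout records, and for 17 of the 46 members in at least 1 library.

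Of the 46 members, 12 were higher and 3 were lower in the knockout library. That is 26.1% and 6.52% of the members, beside 9.01% and 4.85% of all records. A record under 1 FPKM in both libraries cannot pass the limit, and of the 13279 records of at least 1 FPKM in a library 16.1% were higher and 8.67% lower. The 12 higher members were the 4 Timp genes, 3 Mmp genes and 5 Adamts genes, and the 3 lower members were Mmp15, Adamts14 and Adamts20. Only 26 members reached 1 FPKM in a library, and 8 of these did so only in the knockout library and 1 only in the wild-type library. The median log2 ratio was 0.085 over all 46 members and 0.00 over all records. For the Timp genes it was 2.08, for the Mmp genes 0.05 and for the Adamts genes 0.08. The deposited bounds of the knockout value lay wholly above those of the wild-type value for 19 members (41.3%, beside 27.7% of all records), and wholly below for 6 (13.0%, beside 21.1%).

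**Figure D1:**
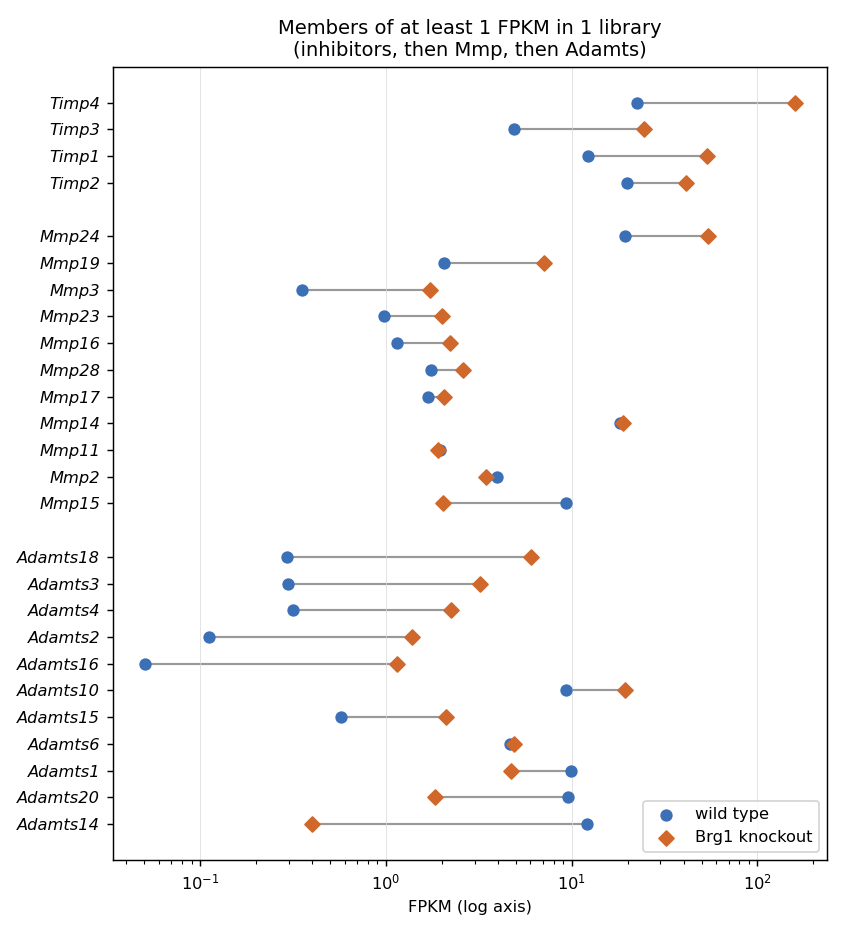
FPKM of the 26 members that reached 1 FPKM in at least 1 library, on a log axis; circles are the wild-type and diamonds the knockout library, joined by a line for each gene, with 1 library per genotype and no error bars. All 4 Timp genes sit further right in the knockout library, while Adamts14, Adamts20 and Mmp15 sit further left.

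The inhibitors were higher in the knockout library without exception, and one of them was the most abundant member. Timp4, an inhibitor that is enriched in astrocytes of the mouse brain, had 22.5 FPKM in wild type against 159 FPKM in the knockout. This is a 7.07-fold higher level (log2 ratio 2.77), and it moved Timp4 from rank 2962 to rank 313 of all records. Timp1, an inducible inhibitor that blocks membrane-type Mmp enzymes poorly, had 12.3 FPKM in wild type against 53.5 FPKM in the knockout (4.35-fold, log2 ratio 2.04). Timp3, which stays bound to the matrix and also inhibits Adamts and Adam proteases, had 4.87 and 24.5 FPKM (5.03-fold, log2 ratio 2.12). Timp2, which both inhibits Mmp enzymes and helps Mmp14 to activate the precursor of Mmp2, had 19.9 and 41.1 FPKM (2.07-fold). Its log2 ratio of 1.02 lay just past the limit, and was 0.93 after centring on the median of all expressed records and 0.98 after division by the upper quartile. For all 4 genes the deposited bounds of the knockout value lay above those of wild type, as they did for 27.7% of all records. The order of the inhibitors by level was Timp4, Timp2, Timp1, Timp3 in the wild-type library and Timp4, Timp1, Timp2, Timp3 in the knockout library, so Timp1 and Timp2 were in opposite order.

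The size of the levels is less certain than their direction for Timp3 and Timp4. Timp3 had deposited bounds of 9.19 to 10.4 FPKM in the wild-type and 36.6 to 39.4 FPKM in the knockout library, above its FPKM in both. Timp4 had bounds of 11.7 to 14.3 FPKM and 93.8 to 100.9 FPKM, below its FPKM in both. From the midpoints of the bounds the log2 ratio was 1.85 for Timp3 and 2.81 for Timp4, so both stayed higher in the knockout library. By these midpoints Timp2 (18.2 FPKM) and not Timp4 (13.0 FPKM) was the leading inhibitor of the wild-type library. Levels of Mmp14 and Mmp24 in that library were also in opposite order by the midpoints (19.9 and 19.2 FPKM).

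Timp1, Timp3 and Timp4 lie inside genes of the synapsin family, which encode proteins of the synaptic vesicle surface. Of the 3 host genes Syn2 was called higher in the knockout library, while Syn1 and Syn3 stayed inside the limit. Timp1 (chromosome X, 20870166 to 20874737, mm10) lies in Syn1, Timp3 (chromosome 10, 86300412 to 86349505) in Syn3, and Timp4 (chromosome 6, 115245616 to 115251849) in Syn2. In the GENCODE M21 annotation each is on the strand opposite to its host gene. Whether the libraries or the counting kept strand is not given in the sources used here, so reads from shared exon bases cannot be assigned. Timp1 shared 0 exon bases with Syn1, Timp4 shared 90 of 5894 with Syn2, and Timp3 shared 1733 of 8144 (21.3%) with Syn3. Syn1 had 14.6 FPKM in wild type against 25.2 FPKM in the knockout (1.72-fold, log2 ratio 0.75). Syn2 had 8.48 and 35.4 FPKM (4.17-fold, log2 ratio 1.94), and Syn3 had 1.18 and 2.83 FPKM (2.39-fold, log2 ratio 0.81). In each pair the fold of the inhibitor gene was larger than that of its host. Timp1 is X-linked, and Xist, the RNA of the inactive X chromosome, had 268 FPKM in wild type against 0.369 FPKM in the knockout. Its part in the Timp1 value was not tested.

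**Figure D2:**
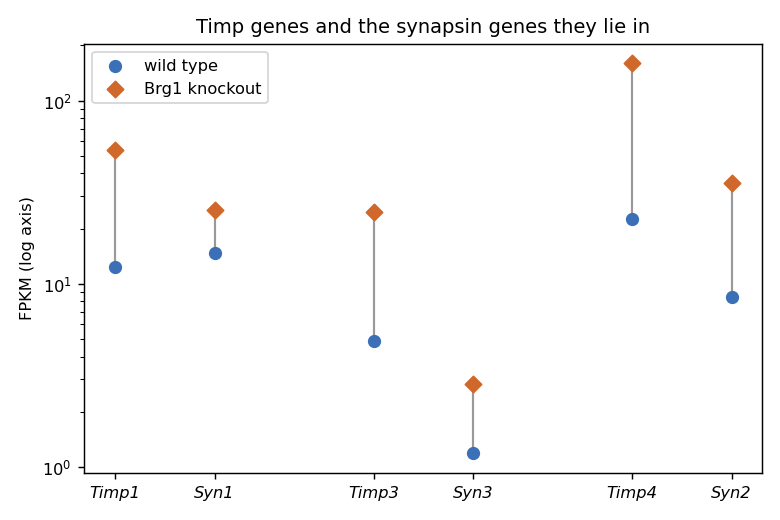
FPKM (log axis) of Timp1, Timp3 and Timp4 beside the synapsin genes in whose span they lie, with circles for the wild-type and diamonds for the knockout library, 1 library each. Timp1, Timp3, Timp4 and Syn2 passed the limit for a higher level in the knockout library (4 of 6 genes); Syn1 (1.72-fold) and Syn3 (2.39-fold) did not.

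The promoters of the inhibitors are shown because the 4 genes were higher together while their RefSeq start windows differ in composition. Each is the RefSeq sequence (GRCm38.p6) of 250 bases before to 50 bases after the start, 5′ to 3′ along the gene, with CpG dinucleotides in capitals. The windows are chrX:20869916-20870215 on the plus strand for Timp1, chr11:118355362-118355661 on the minus strand for Timp2, chr10:86300162-86300461 on the plus strand for Timp3 and chr6:115252156-115252455 on the minus strand for Timp4.
Timp1: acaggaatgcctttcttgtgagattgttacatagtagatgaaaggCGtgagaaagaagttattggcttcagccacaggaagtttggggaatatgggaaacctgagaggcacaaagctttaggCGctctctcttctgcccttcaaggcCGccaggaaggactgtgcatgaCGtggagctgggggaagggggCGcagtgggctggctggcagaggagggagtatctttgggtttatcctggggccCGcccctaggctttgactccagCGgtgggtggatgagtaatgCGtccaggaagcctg
Timp2: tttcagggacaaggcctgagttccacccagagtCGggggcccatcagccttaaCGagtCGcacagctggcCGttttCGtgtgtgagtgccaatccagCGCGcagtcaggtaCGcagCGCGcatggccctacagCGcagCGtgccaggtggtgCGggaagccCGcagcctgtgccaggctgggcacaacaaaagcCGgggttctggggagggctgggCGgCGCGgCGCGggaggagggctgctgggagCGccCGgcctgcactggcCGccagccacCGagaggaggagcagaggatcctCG
Timp3: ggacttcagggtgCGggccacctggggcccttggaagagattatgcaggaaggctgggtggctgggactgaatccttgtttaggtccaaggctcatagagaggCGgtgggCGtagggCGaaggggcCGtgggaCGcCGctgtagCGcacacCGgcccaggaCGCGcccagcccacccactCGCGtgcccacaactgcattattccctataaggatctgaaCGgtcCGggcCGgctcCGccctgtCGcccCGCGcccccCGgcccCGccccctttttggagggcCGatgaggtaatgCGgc
Timp4: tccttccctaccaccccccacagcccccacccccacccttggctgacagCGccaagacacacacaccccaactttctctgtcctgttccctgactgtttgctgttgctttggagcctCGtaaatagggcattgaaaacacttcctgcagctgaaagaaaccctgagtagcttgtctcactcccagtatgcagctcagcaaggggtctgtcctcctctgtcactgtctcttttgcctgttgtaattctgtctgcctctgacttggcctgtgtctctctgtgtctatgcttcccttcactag
The window of Timp2 held 25 CpG dinucleotides and that of Timp3 held 24. Timp1 held 8 and Timp4 held 2. The RefSeq start of Timp4 lies 356 bases upstream of the start of the measured record, while the starts of Timp1, Timp2 and Timp3 match their records, so the Timp4 window does not cover the start of the record whose fold is given. The median over 32851 mouse promoter windows was 7. None of the 4 windows held the AP-1 motif TGAGTCA or the GLI motif GACCACCCA on either strand (0 of 4), beside 5.20% and 0.253% of all windows. Only exact matches were searched, so close variants were not counted, such as the TGAGTAA of the Timp1 window.

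Of 18 listed genes of other inhibitors and activators of extracellular proteolysis, 7 were higher (38.9%, beside 9.01% of all records and 16.1% of expressed ones) and 0 lower (beside 4.85% and 8.67%) in the knockout library. A2m, a circulating and tissue inhibitor that traps proteases of all classes, had 1.37 FPKM in wild type against 23.4 FPKM in the knockout (log2 ratio 3.36). Serpini1, the neuronal inhibitor of tissue plasminogen activator, had 4.40 and 50.5 FPKM (log2 ratio 3.26). Cst3, a secreted inhibitor of cysteine proteases, had 494 and 1987 FPKM (log2 ratio 2.01). These 3 genes inhibit proteases, but Cst3 and Serpini1 act on other classes than metalloproteinases. Pcsk6, a proprotein convertase that cuts precursors outside the cell, had 2.38 and 11.9 FPKM (log2 ratio 1.93). Plat, the gene of tissue plasminogen activator itself, was also higher (10.9 and 26.0 FPKM, log2 ratio 1.18). The remaining higher genes were Lrp1 (11.9 and 31.0 FPKM, log2 ratio 1.31) and Klk6 (0.112 and 1.67 FPKM, log2 ratio 1.26). Reck, a membrane-bound inhibitor of several Mmp enzymes, had 4.97 and 4.18 FPKM and stayed within 2-fold.

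Summed over genes, the inhibitors were below the proteases in the wild-type library and above them in the knockout library. The 4 Timp genes summed to 59.5 FPKM in wild type against 278 FPKM in the knockout (4.68-fold). The 23 Mmp genes summed to 62.2 and 102 FPKM (1.63-fold), and the 19 Adamts genes to 50.6 and 49.9 FPKM. The Timp sum relative to the sum of all 42 proteases was 0.528 in the wild-type and 1.84 in the knockout library. This ratio is formed within a library, so rescaling a library does not change it. From the midpoints of the deposited bounds it was 0.441 and 1.42. Without Timp4, which made up 37.8% and 57.2% of the Timp sum, it was 0.328 and 0.786, so under 1 in both libraries. Relative to the sum of the 23 Mmp genes alone, the sum of all 4 Timp genes was 0.957 in the wild-type and 2.74 in the knockout library. These sums describe RNA and not active protein.

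**Figure D3:**
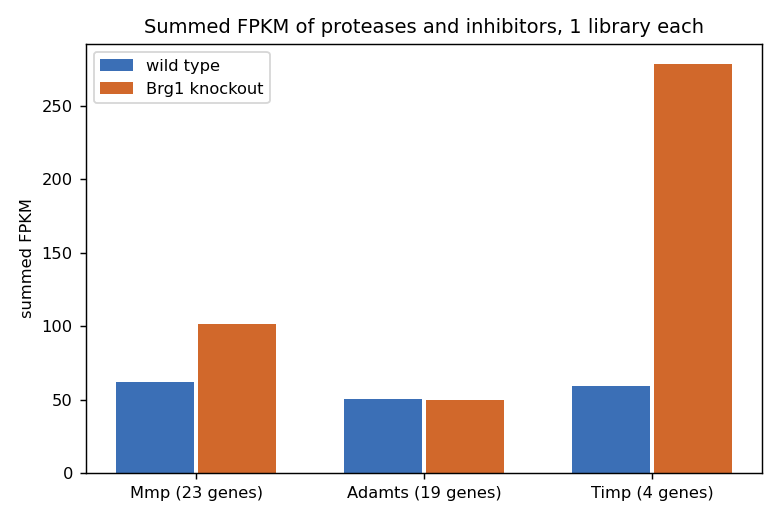
Summed FPKM of the Mmp, Adamts and Timp genes in the wild-type (blue) and knockout (orange) library, 1 library each, on an axis from 0. The Timp bar is 4.68-fold taller in the knockout library, while the Adamts bars are nearly level (50.6 and 49.9 FPKM).

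The membrane-type Mmp enzymes, which are held at the cell surface and act at the edge of the cell, made up most of the Mmp sum, with 80.0% in the wild-type and 78.6% in the knockout library. Of the 6 genes 1 was higher (16.7%), 1 was lower (16.7%) and 3 expressed ones stayed within 2-fold. Of all records 9.01% were higher and 4.85% lower, and of expressed ones 16.1% and 8.67%. Over all 23 Mmp genes 3 were higher (13.0%) and 1 was lower (4.35%). Mmp24 (chromosome 2, 155775344 to 155818366), the neuronal membrane-type enzyme that can cut N-cadherin, had 19.3 FPKM in wild type against 54.4 FPKM in the knockout (2.82-fold, log2 ratio 1.45). It was the most abundant protease by FPKM in both libraries and took 17.1% and 35.9% of the protease sum. Without it the proteases summed to 93.5 and 97.0 FPKM. In GENCODE M21 its exons share 637 of 4683 bases with BC029722 on the other strand, and that record had 5.18 and 14.95 FPKM. Mmp15 (chromosome 8, 95352337 to 95374293), another transmembrane enzyme, differed in the other direction, with 9.28 FPKM in wild type against 2.02 FPKM in the knockout (4.60-fold lower, log2 ratio -1.77).

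Mmp14, the best known membrane-type enzyme and an activator of Mmp2, had 18.1 FPKM in wild type against 18.95 FPKM in the knockout. Its deposited bounds overlapped, and its log2 ratio lay between -0.03 and 0.23 over the scalings and other settings, so it has no direction. Mmp16 had 1.15 and 2.215 FPKM (log2 ratio 0.58), and Mmp17, which is tied to the membrane by a lipid anchor, had 1.68 and 2.06 FPKM (log2 ratio 0.19). Mmp25 stayed under 1 FPKM, with 0.167 and 0.113 FPKM. The 3 membrane-type genes with the highest wild-type levels therefore differed among themselves, with Mmp24 higher, Mmp15 lower and Mmp14 nearly level. In the knockout library Mmp15 (2.02 FPKM) lay below Mmp16 and close to Mmp17 (2.06 FPKM). By the midpoints of the deposited bounds Mmp15 (2.16 FPKM) lay above Mmp17 (2.08 FPKM).

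Secreted Mmp genes were low, and few differed. Mmp2, a gelatinase that digests denatured collagen and basement membrane, had 3.98 FPKM in wild type against 3.47 FPKM in the knockout (log2 ratio -0.16). Mmp9, the other gelatinase, had 0.361 and 0.884 FPKM. Mmp11, a stromelysin that is activated inside the cell, had 1.96 and 1.90 FPKM, and its sign depended on the setting (log2 ratio -0.12 to 0.09). Mmp19 was higher in the knockout library, with 2.06 and 7.13 FPKM (3.46-fold, log2 ratio 1.41). Its exons share 789 of 3533 bases (22.3%) with Tmem198b on the opposite strand, which had 20.9 and 18.9 FPKM. Mmp23, a membrane-anchored enzyme without the usual cysteine switch, had 0.974 and 2.01 FPKM (log2 ratio 0.61), and Mmp28 had 1.75 and 2.59 FPKM (log2 ratio 0.39). Mmp21 had 0 and 0.0204 FPKM.

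Of the Mmp genes 10 lie in a cluster on chromosome 9, from 7272514 to 7699416 (427 kb, mm10), and their levels were low in both libraries. It holds the collagenases, which open the triple helix of fibrillar collagen, with the stromelysins Mmp3 and Mmp10, the matrilysin Mmp7, the macrophage elastase Mmp12 and the enamel protease Mmp20. Only Mmp3 reached 1 FPKM, with 0.352 FPKM in wild type against 1.74 FPKM in the knockout (4.93-fold, log2 ratio 1.02, but 0.93 after centring). Mmp8, the collagenase of neutrophils, had 0.0761 and 0.976 FPKM (log2 ratio 0.88). Mmp12 had 0.623 and 0.676 FPKM, Mmp13 had 0.107 and 0.201 FPKM, and Mmp27 had 0.222 and 0.150 FPKM. Mmp20 had 0 and 0.0260 FPKM, and Mmp1a, Mmp1b, Mmp7 and Mmp10 were listed at 0 in both libraries. Mmp1a and Mmp1b are close copies, so reads from them could be split or lost in counting. Mmp3 lies between Mmp1b and Mmp1a, and a difference between these neighbours cannot be read from zeros that may stand for lost reads.

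**Figure D4:**
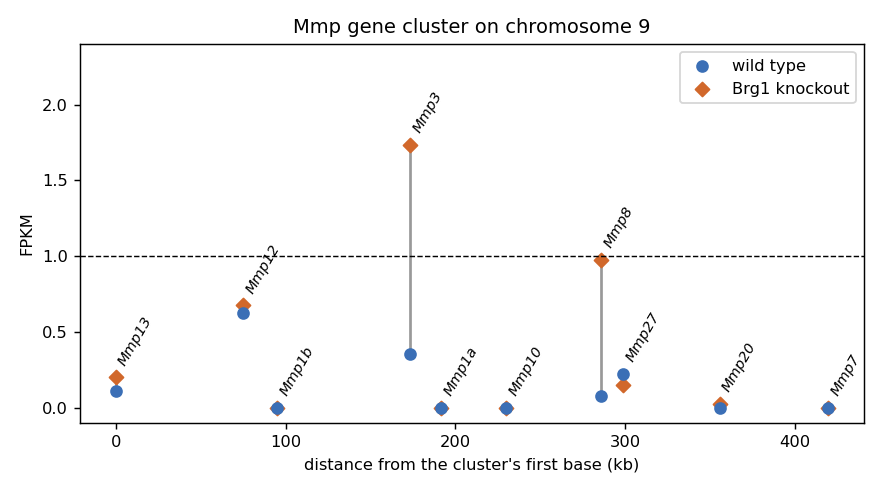
FPKM of the 10 Mmp genes of the chromosome 9 cluster, placed by the distance of their first base from the cluster's first base in kb; circles are the wild-type and diamonds the knockout library (1 each), and the dashed line marks 1 FPKM. Mmp3 (1.74 FPKM, knockout) is the one value above the line, and 4 genes are at 0 in both libraries.

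Promoter motifs of the cluster were compared with those of the other members. RefSeq windows were found for 32 of 46 members, 10 of them in the cluster. The AP-1 motif TGAGTCA (or TGACTCA on the other strand), the site bound by Fos and Jun proteins, was present in 7 of the 10 cluster genes and in 0 of the other 22 members, beside 5.20% of all 32851 windows. The TATA motif TATAAA, searched on the gene's strand at any place in the window, was present in 8 of the 10. It was present in 2 of the other 22, beside 8.32% of all windows. In each of the 7 genes a TATA motif followed the AP-1 motif, and the nearest one began 19 to 48 bases after it. Its place relative to the RefSeq start varied. It began 49 bases before the start in Mmp1b, 28 in Mmp1a, 16 in Mmp13 and 7 in Mmp3, and past the start in Mmp12. Whether these matches act as TATA boxes was not tested. Mmp7 also held a TATA motif ahead of its AP-1 motif. CpG dinucleotides were few in the cluster, 0 to 7 per window. The GLI motif was found in 0 of the 32 members. These exact motif matches describe the sequence, leave out close variants and do not show binding. Mmp3, the expressed gene of the cluster, is shown with its neighbour Mmp1a, which was listed at 0 in both libraries, and with Mmp13 at the cluster's end. Capitals mark the AP-1 motif and then the TATA motif. The windows are chr9:7445572-7445871 for Mmp3, chr9:7463891-7464190 for Mmp1a and chr9:7272264-7272563 for Mmp13, all on the plus strand of GRCm38.p6.
Mmp3: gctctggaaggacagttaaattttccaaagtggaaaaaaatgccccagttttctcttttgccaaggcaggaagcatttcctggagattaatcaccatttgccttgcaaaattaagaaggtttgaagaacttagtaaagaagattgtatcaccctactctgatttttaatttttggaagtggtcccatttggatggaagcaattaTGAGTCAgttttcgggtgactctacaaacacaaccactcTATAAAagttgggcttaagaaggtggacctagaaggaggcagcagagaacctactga
Mmp1a: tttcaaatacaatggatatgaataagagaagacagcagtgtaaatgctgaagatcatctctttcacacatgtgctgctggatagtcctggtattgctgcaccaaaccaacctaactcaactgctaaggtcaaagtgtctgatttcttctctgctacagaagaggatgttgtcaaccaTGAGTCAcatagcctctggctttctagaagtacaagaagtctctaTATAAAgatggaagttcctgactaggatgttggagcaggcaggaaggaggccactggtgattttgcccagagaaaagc
Mmp13: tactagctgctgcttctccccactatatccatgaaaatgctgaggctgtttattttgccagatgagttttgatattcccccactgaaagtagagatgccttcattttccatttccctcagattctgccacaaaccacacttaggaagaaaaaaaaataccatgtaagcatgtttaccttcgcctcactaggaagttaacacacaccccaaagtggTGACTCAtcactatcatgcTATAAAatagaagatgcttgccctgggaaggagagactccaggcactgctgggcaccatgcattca
In all 3 genes the AP-1 motif came before the TATA motif, but the spacing differed. The TATA motif began 39 bases after the AP-1 motif in Mmp3, 45 in Mmp1a and 19 in Mmp13. The AP-1 motif reads TGAGTCA in Mmp3 and Mmp1a and TGACTCA in Mmp13. Mmp3 alone was listed at 1 FPKM or more, and the 0 of Mmp1a may stand for lost reads.

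The Adamts genes had nearly the same sum in both libraries, although single members differed in opposite directions. Of 19 genes 5 were higher (26.3%, beside 9.01% of all records and 16.1% of expressed ones) and 2 lower (10.5%, beside 4.85% and 8.67%). The procollagen N-proteinases, which remove the amino-terminal propeptide of fibrillar procollagens, were past the limit in all 3 cases. Adamts14 (chromosome 10, 61197112 to 61273438) had 12.1 FPKM in wild type against 0.399 FPKM in the knockout, 30.3-fold lower (log2 ratio -3.23). It was the third most abundant protease in the wild-type library and was under 1 FPKM in the knockout library. Its relatives Adamts2 and Adamts3 were higher there. Adamts3, which also acts in the processing of a lymphatic growth factor, had 0.296 and 3.21 FPKM (10.9-fold, log2 ratio 1.70), and Adamts2 had 0.111 and 1.38 FPKM (12.4-fold, log2 ratio 1.10). The leading gene of this group was therefore Adamts14 in one library and Adamts3 in the other, and the sum of the 3 was 12.5 and 4.996 FPKM.

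The Adamts14 promoter is shown as the start region of the member with the lowest log2 ratio. The window is chr10:61273370-61273669 on the minus strand of GRCm38.p6, with CpG dinucleotides in capitals.
Adamts14: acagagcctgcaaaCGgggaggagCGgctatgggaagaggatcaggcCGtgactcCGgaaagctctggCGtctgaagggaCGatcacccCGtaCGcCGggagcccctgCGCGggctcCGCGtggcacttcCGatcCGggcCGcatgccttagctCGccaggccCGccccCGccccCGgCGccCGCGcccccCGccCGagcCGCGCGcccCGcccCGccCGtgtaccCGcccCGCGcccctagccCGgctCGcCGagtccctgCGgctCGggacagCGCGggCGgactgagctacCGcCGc
It held 44 CpG dinucleotides. Adamts2 and Adamts3, which were higher in the knockout library, held 41 each, and so did Adamts20, which was lower. Adamts18, the Adamts gene with the highest log2 ratio, held 22, and no window was matched for the higher genes Adamts4 and Adamts16.

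Proteoglycan-cleaving Adamts genes summed to 21.4 FPKM in wild type against 12.2 FPKM in the knockout. Adamts20 (chromosome 15, 94270163 to 94404350), a versican protease known from pigment cell migration in the embryo, had 9.49 and 1.83 FPKM (5.18-fold lower, log2 ratio -1.89). Adamts1, which cuts versican and aggrecan, had 9.91 and 4.70 FPKM. That is 2.11-fold on the FPKM scale, but its log2 ratio of -0.94 is inside the limit through the added 1 FPKM. Adamts4, a protease of the brain proteoglycan brevican, was higher in the knockout library, with 0.314 and 2.24 FPKM (7.13-fold, log2 ratio 1.30). Adamts15 had 0.573 and 2.11 FPKM (3.69-fold, log2 ratio 0.98). Adamts5, Adamts8 and Adamts9 stayed under 1 FPKM in both libraries. Adjacent relatives did not share a level. Adamts1 lies 55.0 kb from Adamts5, which had 0.393 and 0.480 FPKM, and Adamts15 lies 20.1 kb from Adamts8, which had 0.308 and 0.237 FPKM.

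Among the remaining Adamts genes, Adamts18 (chromosome 8, 113698137 to 113848839) had 0.295 FPKM in wild type against 6.01 FPKM in the knockout (20.4-fold, log2 ratio 2.44). Adamts16 had 0.0505 and 1.14 FPKM, with a log2 ratio of 1.03 that was 0.94 after centring. Adamts10, which acts on fibrillin microfibrils, had 9.26 and 19.3 FPKM (2.09-fold, log2 ratio 0.99), a level close to that of Mmp14 (18.95 FPKM) in the knockout library. Its relative Adamts6 had 4.67 and 4.91 FPKM, and its sign depended on the setting (log2 ratio -0.03 to 0.21). Adamts19 had 0.976 and 0.177 FPKM (log2 ratio -0.75). Adamts13, the protease of von Willebrand factor, was listed at 0 in both libraries. In all, 20 members stayed under 1 FPKM in both libraries, 12 Mmp and 8 Adamts genes, with log2 ratios between -0.75 and 0.88.

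**Figure D5:**
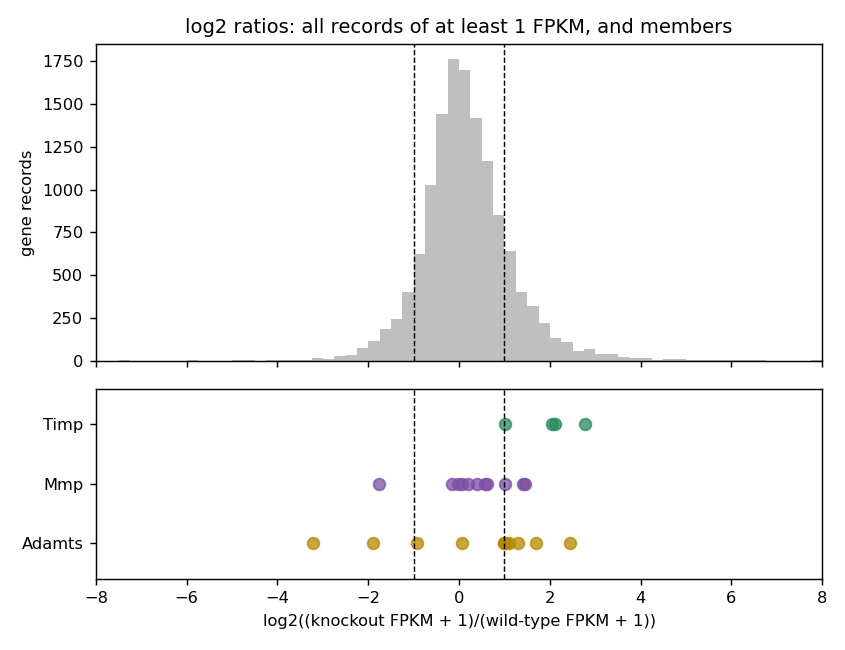
Upper panel: number of records by log2 ratio among the 13279 records of at least 1 FPKM in at least 1 library. Lower panel: the 26 members that reached 1 FPKM, by family, on the same axis, with dashed lines at -1 and 1; the 4 Timp genes lie to the right of 1, while Mmp and Adamts genes lie on both sides.

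Genes around these proteases were compared in the same way. Of 16 Adam and Adamts-like genes, 3 were higher (18.75%, beside 9.01% of all records) and 0 lower (beside 4.85%). Only 12 of the 16 reached 1 FPKM in a library, and these 12 hold the 3 higher genes. Among expressed records 16.1% were higher. The 3 were Adam23 (3.81 and 14.4 FPKM), which lacks protease activity and acts in adhesion, Adamtsl4 (0.224 and 1.87 FPKM) and Adam15 (7.22 and 15.4 FPKM, log2 ratio 1.001). The sheddase genes Adam10 (23.3 and 38.6 FPKM) and Adam17 (8.11 and 10.04 FPKM) stayed within 2-fold. Of 26 matrix genes whose products these enzymes can meet, 7 were higher (26.9%, beside the same 9.01% and 16.1%) and 0 lower (beside 4.85% and 8.67%). The deposited bounds of the knockout value lay above those of wild type for 14 of the 26 (53.8%, beside 27.7% of all records). They lay below for 8 of the 26 (30.8%, beside 21.1% of all records). The brain link protein gene Hapln4 had 0.516 FPKM in wild type against 13.9 FPKM in the knockout (log2 ratio 3.30), and Tnr, the gene of tenascin-R, had 0.263 and 4.44 FPKM (log2 ratio 2.11). Dcn, the gene of the collagen-binding proteoglycan decorin, had 18.7 and 71.6 FPKM (log2 ratio 1.88), and the laminin gene Lama2 had 0.593 and 4.43 FPKM (log2 ratio 1.77). The Adamts substrates brevican (Bcan, 40.2 and 43.6 FPKM) and versican (Vcan, 6.95 and 7.90 FPKM) stayed within 2-fold. Levels were below wild type for the laminin gene Lama1 (2.25 and 0.698 FPKM, log2 ratio -0.94), the tenascin-C gene Tnc (2.28 and 0.747 FPKM, log2 ratio -0.91) and the basement membrane collagen gene Col4a2 (5.99 and 2.62 FPKM, log2 ratio -0.95), each just inside the limit. From the midpoints of the bounds Col4a2 had a log2 ratio of -1.13, past it.

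Markers of several cell types that can express these genes also differed between the libraries. The counts below stand beside 9.01% of all records and 16.1% of expressed ones called higher, and 4.85% and 8.67% called lower. Of 7 choroid plexus markers 0 were higher and 0 lower (sum 1053 and 1106 FPKM), with Otx2 just inside the limit (40.9 and 20.4 FPKM, log2 ratio -0.97). Of 10 markers of astrocytes and Bergmann glia all were higher (10 of 10), and their sum went from 505 to 2613 FPKM (5.17-fold, against 4.68-fold for the Timp sum). Of 12 microglia and macrophage markers 9 were higher (sum 306 and 690 FPKM), while Mmp12 of macrophages had a log2 ratio of 0.05. Of 11 pericyte, fibroblast and meningeal markers 4 were higher (sum 45.1 and 145.7 FPKM), and of 10 endothelial markers 1 was (sum 28.3 and 45.8 FPKM), a share near that of all records. Still, all 10 endothelial markers were above their wild-type level, as were 10808 of all 23746 records. For 7 of the 10 the deposited bounds of the knockout value lay above those of wild type (70%, beside 27.7% of all records). Of 8 neutrophil markers found 3 were higher (sum 29.04 and 151.05 FPKM), but Elane was listed at 0 in both libraries and Mpo had 0.201 and 0.0557 FPKM. All 9 oligodendrocyte markers were above their wild-type level and 8 were called higher (sum 71.2 and 718 FPKM). The 7 Purkinje (sum 18.3 and 848 FPKM) and 6 mature granule neuron markers (sum 44.2 and 359 FPKM) were all higher. Of 9 granule precursor and tumour genes 6 were lower and 0 higher (sum 799 and 290 FPKM, with Atoh1 present at 67.0 and 10.4 FPKM), in the library in which Adamts14, Adamts20 and Mmp15 were lower, and 8 of 8 cell cycle genes were lower (sum 731 and 230 FPKM). The part of cell composition in the values of the proteases and inhibitors was not tested.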

How the data were processed

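RNA sequencing gene values of 2 mouse medulloblastomas, 1 wild type and 1 Brg1 knockout, were used as deposited. The authors deposited FPKM for 23746 gene records per library, with a lower and an upper bound in FPKM and a status flag (per the file headers). mm10 and Cuffdiff 2.1.1 appear in the submitters' processing notes without a role. The aligner, the annotation and the use of strand were not given in the sources used here. No read counts were given. Among 650 records under 0.05 FPKM in both libraries, ratios gathered near no single value (50 in the fullest bin), so reads were not recovered and depth is unknown. Libraries were joined by symbol and position. Start positions in the files count from 0 (15 members matched GENCODE M21 starts that way, 4 the other way) and are printed counting from 1. Log2 ratios used a pseudocount of 1 FPKM, and records of at least 1 FPKM in 1 library counted as expressed (13279). A fixed 2-fold limit took the place of a test. All 46 members had status OK and 1 locus. Every member of at least 1 FPKM is named; from each list of related genes up to 4 with the largest log2 ratios are named, and other named genes were chosen after their values were seen. The members and all gene lists were chosen with earlier results of these data known. The TATA motif was added later. Promoters came from RefSeq (GRCm38.p6) and matched 32 members. Scripts were tested on simulated data and ran on Python 3.11.15 with pandas 2.3.3, numpy 2.4.6 and, for figures, matplotlib 3.10.9.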

Additional observations from a re-analysis of the deposited data

How the results depend on the processing

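The 13 alternatives covered pseudocounts, filters on low values, scalings, thresholds, bound midpoints, record status and locus number. No member of at least 1 FPKM that was called higher or lower changed sign. Adamts6, Mmp11 and Mmp14, which were not called, did (3 of 26). Of 325 comparisons of a named member with an alternative, 298 kept their side of the limit, 13 moved past it and 14 fell inside it. Filters on low values, record status and locus number leave a member's ratio unchanged, so those comparisons could only keep their side. The changed thresholds moved the limit and not the ratio. The count of 298 is therefore no measure of how stable the ratios are. At 4-fold, 4 members were higher (1 Adamts, 3 Timp and 0 Mmp genes) and 1 was lower (1 Adamts and 0 Mmp genes). Among members of at least 5 FPKM, 7 were higher (1 of them an Adamts gene), and the Timp sum relative to the protease sum was 0.662 and 2.42, since fewer genes enter it. From the bound midpoints that ratio was 0.441 and 1.42. The median log2 ratio of members was 0.98 over the 26 of at least 1 FPKM, 0.59 at 0.5 FPKM and 0.085 with no filter, and the filter keeps genes for being high in 1 library. Rescaling to the same FPKM sum moved the median of all expressed records from 0.09 to 0.24. No paired analysis was possible because each genotype has 1 library, which also leaves no replicate to leave out. The depth is unknown, so no lowest detectable level can be given for members listed at 0.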
